A study of Mus musculus with 24 samples.

Results

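The Nodal and Lefty signaling genes are 8 genes chosen by name from the 51912 genes of the RNA-seq count tables: the ligands Nodal and Gdf3, the co-receptor Tdgf1 (Cripto), the antagonists Lefty1 and Lefty2, the SMAD partner Foxh1, the inhibitory SMAD Smad7 and the target Mixl1. The rule names the genes and sets no threshold on a measured value, though the genes were picked with earlier results of these data known. All 8 were found, and their counts were read in 9 libraries from mouse cells, with 3 libraries for ESCs, 3 for NPs and 3 for TET TKO ESCs. The ESCs are wild type TC-1 mouse embryonic stem cells (strain C57BL/6 X 129S5) kept undifferentiated with LIF. The NPs are neuronal progenitors of the same strain and genotype, made from ESCs by aggregation and treatment with retinoic acid. The TET TKO ESCs carry a TET1/2/3 triple knockout in another line (strain C57BL/6 X 129/sv), so that genotype and line cannot be told apart. They hold the RMCE cassette that the study used as a landing site, and the study's screen in ESCs with TET also used a line with such a site. The study compared these cells to ask how transcription factors act on DNA methylation; the RNA-seq libraries show which genes each kind of cell expressed.

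Nodal is a secreted ligand of the TGF-beta family that signals through activin receptors, for which it needs a co-receptor such as Tdgf1, and through SMAD2 and SMAD3, which reach DNA with FOXH1. The pathway switches on Nodal itself and the Lefty genes, whose products block the ligand and its co-receptor. In the early mouse embryo the pathway forms the mesendoderm and the left-right axis.

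Libraries of ESCs and NPs held 20519702 to 23976914 counts and those of TET TKO ESCs 80704741 to 93210102. The 3 ESC libraries were not equally far apart. ESC replicates 1 and 2 differed by a chi-square of 2.37 per degree of freedom, above sampling noise, for which 1 is expected, against 14 and 19.69 for the pairs with replicate 3. Pairs of NP libraries gave 39.53 to 67.92, and pairs of the deeper TET TKO libraries gave 108.8 to 194.1. The study's methods speak of biological replicates for RNA-seq, without saying how they were grown. Nothing in the labels ties the replicates to separate cultures, so p-values measure the spread between these libraries, which may be partly technical. All 7 pluripotency markers were called lower in NPs, and 5 of 6 neural progenitor markers were called higher, with Neurog2, a proneural factor, at a log2 fold change of 10.11, Pax6 at 5.39 and Sox1 at 4.28. A call here is a Benjamini-Hochberg adjusted p under 0.001 with a fold change of at least 3, from edgeR's quasi-likelihood test over all genes.

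In ESCs, 7 of the 8 genes were well expressed, and Tdgf1 stood above the others. Levels are given as RPKM, counts scaled to gene length and library size, which allows genes to be compared. Tdgf1 had a mean of 254 ± 6.14 RPKM (SD, n = 3). Lefty1 (76.1 ± 25.3), Nodal (66.8 ± 13.3), Lefty2 (63.1 ± 27.0) and Gdf3 (53.0 ± 5.17) followed, and the libraries of each of these neighbours overlapped those of the next. Foxh1 (29.6 ± 1.93) and Smad7 (26.2 ± 1.41) came below them, with no overlap between the pair. Mixl1, a homeobox gene of the primitive streak, was near the limit of detection at 0.299 ± 0.0655 RPKM, or 12 to 21 counts a library. In the plot of levels by library, the NP points lie far below the others for all genes except Smad7 and Mixl1, where the gap is smaller.

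**Figure D1:**
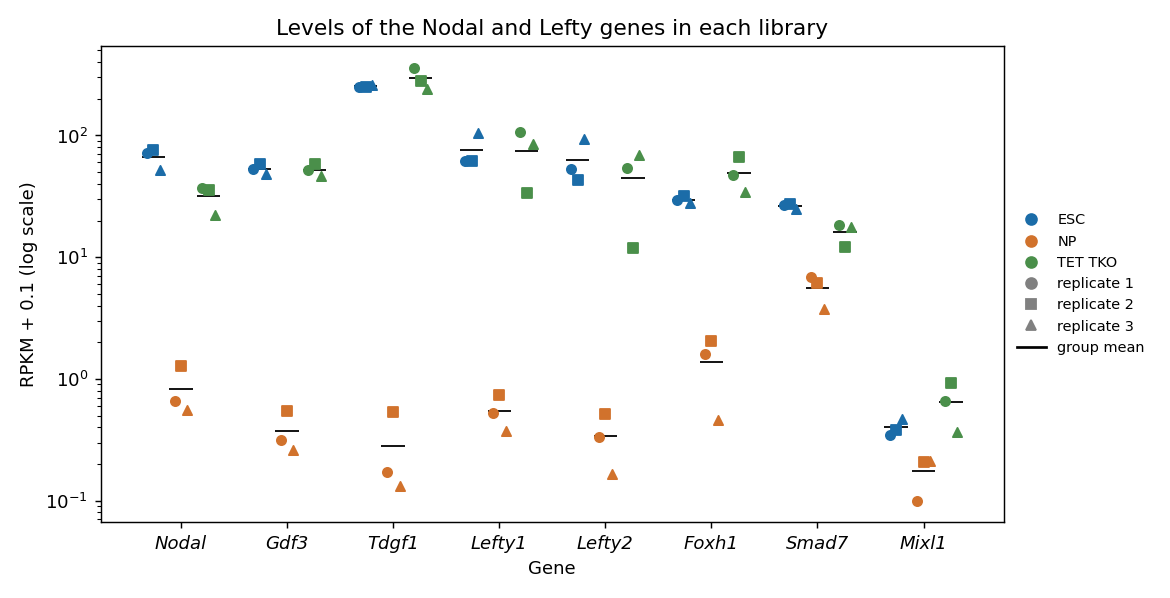
RPKM + 0.1 of the 8 genes on a log axis, 1 point per library, with colours for ESCs, NPs and TET TKO ESCs, marker shapes for replicates and a black bar at each group mean. Tdgf1 is highest in ESCs (mean of 254 RPKM) and in TET TKO ESCs (294 RPKM) and under 0.5 RPKM in all 3 NP libraries.

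In NPs the order was another one. Smad7 was the highest of the 8 genes at 5.45 ± 1.62 RPKM, Foxh1 was next at 1.28 ± 0.82 and Nodal came next at 0.731 ± 0.392. Tdgf1, the highest in ESCs, was above only Mixl1 with 0.181 ± 0.224 RPKM. Between Foxh1 and Tdgf1, each gene in the order overlapped the next in its libraries. In TET TKO ESCs the order began with Tdgf1 at 294 ± 60.9 RPKM and Lefty1 at 75.1 ± 37.8, and Nodal, below only Tdgf1 and Lefty1 in ESCs, was above only Smad7 and Mixl1 at 31.5 ± 8.08. Gdf3, Foxh1 and Lefty2 lay between Lefty1 and Nodal and overlapped each other. Without division by gene length, 4 of the 8 genes took another rank in ESCs and 3 in TET TKO ESCs.

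The comparison of NPs with ESCs asks what became of the pathway when pluripotent cells were turned into neuronal progenitors. All 7 genes that passed the filter on low values (at least 1 RPKM in 1 library) were called lower in NPs, from 4.82-fold for Smad7 to 1348-fold for Tdgf1. Gdf3, Tdgf1, Lefty1 and Lefty2 passed it through their ESC libraries alone, with NP maxima of 0.442, 0.439, 0.632 and 0.41 RPKM. For genes that pass in this way, lower is the only direction open to a call. Of all 15197 genes tested, 9.98% were called lower. The median log2 fold change was -7.41 over the 7 genes and 0.04 over all genes tested. NP and ESC libraries did not overlap for any of the 8 genes, Mixl1 included, a separation in this direction that 35.6% of the tested genes showed.

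Nodal, the ligand after which the pathway is named, is the gene ENSMUSG00000037171 on chromosome 10, plus strand, from 61417972 to 61425338 (build GRCm38). Its level was 72.3, 76.5 and 51.6 RPKM in ESC replicates 1 to 3, and 0.56, 1.18 and 0.453 RPKM in the NP replicates. NP replicate 2 was the highest of the NP libraries and still lay far under the lowest ESC library. The log2 fold change was -6.50 ± 0.34 (SE), with an adjusted p of 1.92e-06 by edgeR. Gdf3, a related ligand that shares the co-receptor (ENSMUSG00000030117, chromosome 6, minus strand, 122605403 to 122610087), went from 53.2, 58.1 and 47.7 RPKM in ESCs to 0.213, 0.442 and 0.16 RPKM in NPs. Its log2 fold change was -7.58 ± 0.29 (adjusted p = 5.53e-07).

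Tdgf1, which tethers the ligand to its receptors at the cell surface (ENSMUSG00000032494, chromosome 9, minus strand, 110939603 to 110946158), had 252, 249 and 261 RPKM in ESCs. In NPs it had 4, 28 and 2 counts, or 0.0716, 0.439 and 0.0329 RPKM. This was the widest gap among the 8 genes, at a log2 fold change of -10.40 ± 0.52 (adjusted p = 1.59e-06), and most of its NP counts came from replicate 2. Without that library the log2 fold change was -12.21.

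The antagonists fell with the ligand. Lefty1 (ENSMUSG00000038793, chromosome 1, plus strand, 180935022 to 180938400) had 62.1, 61 and 105 RPKM in ESCs and 0.427, 0.632 and 0.27 RPKM in NPs. Lefty2 (ENSMUSG00000066652, chromosome 1, plus strand, 180893108 to 180899103) had 53, 42.6 and 93.6 RPKM in ESCs and 0.234, 0.41 and 0.0661 RPKM in NPs. The log2 fold changes were -7.41 ± 0.36 (adjusted p = 1.28e-06) for Lefty1 and -8.04 ± 0.51 (adjusted p = 5.04e-06) for Lefty2. Without NP replicate 2, the NP library with most Lefty2, the log2 fold change of Lefty2 was -8.73. ESC replicate 3 had the highest level of both Lefty genes and the lowest level of Nodal among ESC libraries.

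The intracellular members fell less. Foxh1 (ENSMUSG00000033837, chromosome 15, minus strand, 76668284 to 76669948) had 29.2, 31.7 and 27.9 RPKM in ESCs and 1.51, 1.95 and 0.363 RPKM in NPs, with a log2 fold change of -4.54 ± 0.45 (adjusted p = 4.72e-05). Smad7, which blocks the receptors from inside the cell (ENSMUSG00000025880, chromosome 18, plus strand, 75367529 to 75395935), had 26.6, 27.3 and 24.6 RPKM in ESCs. It was still detected in NPs at 6.74, 5.98 and 3.63 RPKM, with a log2 fold change of -2.27 ± 0.21 (adjusted p = 3.27e-05). Mixl1 (ENSMUSG00000026497, chromosome 1, minus strand, 180693043 to 180697034) had 12, 14 and 21 counts in ESCs and 0, 6 and 6 in NPs and was not tested under the filter. Without a filter its log2 fold change was -1.96 ± 0.65 and its adjusted p 0.0136, which is not a call.

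**Figure D2:**
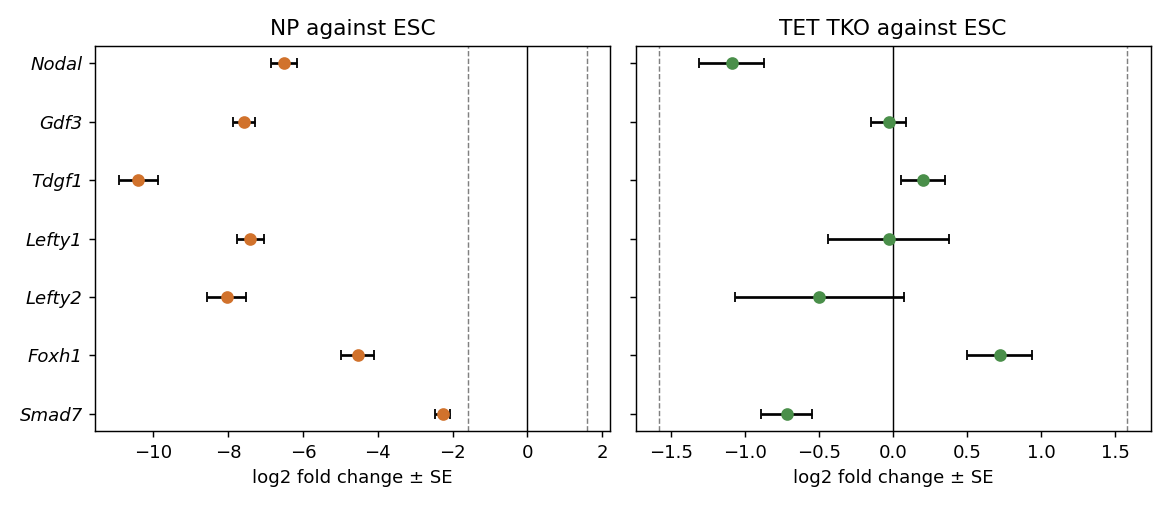
Log2 fold changes against ESCs with SE bars for the 7 genes that passed the filter, in NPs (left) and TET TKO ESCs (right); dashed lines mark a 3-fold change, and the horizontal scales differ between the panels. In NPs all 7 lie left of the 3-fold line, from -2.27 for Smad7 to -10.40 for Tdgf1, and in TET TKO ESCs all 7 lie between the lines, from -1.09 for Nodal to 0.72 for Foxh1.

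Markers of pluripotent cells moved with these genes. The summed level of the 7 pluripotency markers was 1600 to 1643 RPKM in ESCs and 55.5 to 68.6 RPKM in NPs, where Sox2, which neural progenitors also express, gave 49.2 to 62.5 RPKM. Tdh, Zfp42 and Pou5f1 had the largest falls of the list, with log2 fold changes of -9.10, -8.57 and -8.49. NP replicate 2, which had the most Nodal, Gdf3, Tdgf1, Lefty1, Lefty2 and Foxh1 of the NP libraries, was the highest for 5 of the 7 markers (Pou5f1 with 1.85 RPKM, Nanog, Zfp42 with 1.57 RPKM, Esrrb and, by a small margin, Tdh) and the lowest for Sox2 and Klf4. Its list sum of 58.1 RPKM was the middle of the 3. In bulk libraries, fewer cells of a type and less RNA per cell cannot be told apart, and the part of remaining pluripotent cells in the NP values was not tested.

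Markers of other cell types also differed. Of 6 primitive endoderm markers 3 were called higher in NPs (Foxa2, Sox17 and Gata6), and the list summed to 1.99 to 3.5 RPKM in ESCs and 22.8 to 25.1 RPKM in NPs. Of the mesoderm markers 2 of 5 could be tested, and Eomes was called lower. Of 3 tested trophectoderm markers Krt18 was called higher and Tfap2c lower. Of 4 fibroblast markers Postn was called higher. Thy1 went the other way without a call, at -2.87 ± 0.54 on the log2 scale (adjusted p = 0.00171 by edgeR). Col1a1 and Col1a2 were higher at 2.85 and 5.39, also without a call. The fibroblast list summed to 28.8 RPKM in NP replicate 2 against 10.3 and 2.57 RPKM in replicates 1 and 3. The part of all these markers in the results on Nodal and Lefty genes was not tested.

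Other genes of the pathway were called in both directions. Of 46 other pathway genes in 5 lists, 38 were tested in NPs against ESCs, of which 4 were called lower and 12 higher; 12.4% of all tested genes were called higher. The median log2 fold change of the 38 was 0.87. With an adjusted p under 0.05 and no fold limit, 10 were lower and 22 higher, beside 31.2% and 32.9% of all tested genes; the 7 members were lower by this rule too. Among 8 tested ligands and processing enzymes, 2 were called lower and 4 higher. Inhbb, the activin B subunit, had the largest change of this list, with 18.9, 20.3 and 11.5 RPKM in ESCs, 0.121, 0.164 and 0.0406 RPKM in NPs and a log2 fold change of -7.26 ± 0.41 (adjusted p = 2.67e-06). Tgfb3 and Gdf11, which signal through the same SMADs, were called higher at 6.67 ± 0.56 and 4.99 ± 0.26 on the log2 scale. Gdf1, a partner of Nodal in the embryo, was listed at 0 counts in all 9 libraries. Overlap of exons with other genes was checked only for the 8 members, so this value does not show that Gdf1 was silent.

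Receptor genes differed in level in NPs. Acvr1b, Acvr2a and Acvr2b, which encode activin receptors that Nodal uses, had means of 14.3, 10.5 and 18.3 RPKM in NPs against 13.9, 4.15 and 8.65 RPKM in ESCs, and none of them was called. Acvr2a was 2.53-fold higher and Acvr2b 2.11-fold higher, under the 3-fold limit, with adjusted p of 0.000134 and 0.00162 by edgeR. Acvr1c (0.00471 RPKM in NPs) and the co-receptor Cfc1 (0.0866 RPKM in NPs) were under the filter in all libraries. Of 6 tested receptor genes 3 were called higher and 0 lower, and 0 had a fall at an unadjusted p under 0.05 or a call by DESeq2 in that direction. With an adjusted p under 0.05 and no fold limit, 5 of the 6 were higher, beside 32.9% of all tested genes. The called genes were the TGF-beta receptors Tgfbr1, Tgfbr2 and Tgfbr3, with log2 fold changes of 1.73, 2.96 and 2.15. Of 9 SMADs and nuclear partners, Smad3 was called higher at 2.79 ± 0.13, from a mean of 4.72 ± 0.385 to 32.7 ± 3.96 RPKM (SD, n = 3). Eomes, a T-box factor of the mesendoderm, was called lower at -3.56 ± 0.40, from 1.28 ± 0.117 to 0.106 ± 0.0624 RPKM. It is the same gene as the called mesoderm marker above.

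None of the 8 tested inhibitors outside the 8 genes was called, though at an unadjusted p under 0.05 there were 2 lower and 4 higher, and DESeq2 called 1, Fst, higher. Of 7 tested mesendoderm targets 4 were called higher and 1 lower. Foxa2, Gata6 and Sox17 among the 4 are the same genes as the 3 called primitive endoderm markers above. Lhx1 was called higher at 8.46 ± 0.28 (0.0682 ± 0.0295 to 24.8 ± 4.47 RPKM) and Foxa2 at 5.93 ± 0.42, whereas Otx2 was called lower at -5.71 ± 0.24. Foxa2 and Otx2 are transcription factors of the endoderm and of the anterior epiblast and forebrain, and Lhx1 is also a gene of early neurons.

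**Figure D3:**
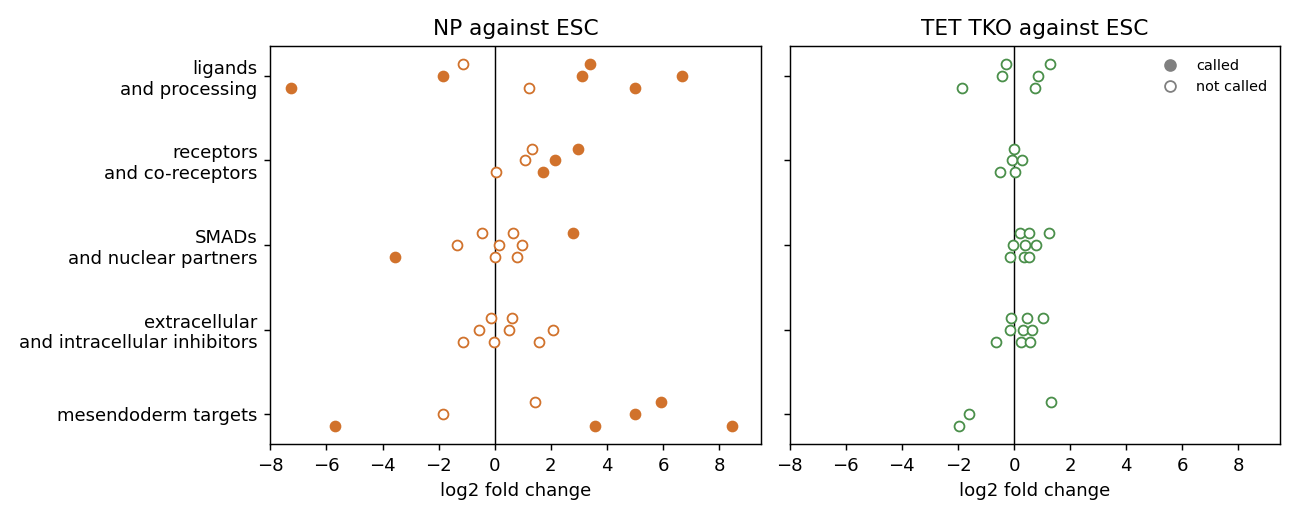
Log2 fold changes against ESCs of the tested genes of the 5 pathway lists outside the 8 genes, in NPs (left) and TET TKO ESCs (right), with filled points for called genes and open points for the others. In NPs 16 of 38 points are filled and spread from -7.26 (Inhbb) to 8.46 (Lhx1), and in TET TKO ESCs 0 of 32 are filled.

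The comparison of TET TKO ESCs with ESCs asks whether loss of the TET dioxygenases, which oxidise methylated cytosine, goes with another level of these genes. It shares its ESC libraries with the comparison above. The targeted genes were lower: Tet1 had 65.9, 60.8 and 68.5 RPKM in ESCs and 13.2, 16.1 and 11.3 RPKM in TET TKO ESCs (log2 fold change of -2.28 ± 0.14, adjusted p = 8.67e-05). Tet2 fell by 2.94 ± 0.13 on the log2 scale (adjusted p = 1.74e-05). Tet3 was under the filter, at 0.631 to 0.77 RPKM in ESCs and 0.474 to 0.617 RPKM in TET TKO ESCs. Counts per gene do not separate deleted exons from the rest of a transcript.

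None of the 7 tested genes was called in TET TKO ESCs by edgeR or by DESeq2, against 1.21% of 13939 genes called lower and 1.1% called higher. At an unadjusted p under 0.05 there were 2 lower and 1 higher. The same 3 genes, Nodal, Smad7 and Foxh1, passed an adjusted p under 0.05 with no limit on the fold change, a rule by which 12.7% of all genes were lower and 22.8% higher. The median log2 fold change was -0.03 over the 7 genes and 0.12 over all tested genes; scaling by library size alone moved the latter to -0.04, a shift of -0.16, and turned the direction of none of the 7.

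Nodal was lower in TET TKO ESCs. Its level was 36.6, 35.6 and 22.1 RPKM there, so that the highest of these libraries lay under the lowest ESC library at 51.6 RPKM. The difference was 2.14-fold, a log2 fold change of -1.09 ± 0.22, with an adjusted p of 0.00814 by edgeR. Over 13 alternatives the adjusted p ran from 5.04e-06 to 0.037 and the log2 fold change from -1.26 to -0.90. Libraries that did not overlap in this direction were found for 19.6% of all tested genes.

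Smad7 was also lower, at 18.4, 12 and 17.7 RPKM against 24.6 to 27.3 RPKM in ESCs, with no overlap. The log2 fold change was -0.72 ± 0.17 (adjusted p = 0.0135). The adjusted p ran from 9.34e-05 to 0.0574 over 13 alternatives, and it was over 0.05 without ESC replicate 1 or ESC replicate 2. Foxh1 was higher, at 46.9, 66.2 and 34.1 RPKM against 27.9 to 31.7 RPKM, with a log2 fold change of 0.72 ± 0.22 (adjusted p = 0.039). Its libraries did not overlap, as for 32.2% of tested genes in this direction. It passed 0.05 in 6 of 13 alternatives, with adjusted p from 0.00478 to 0.159. It missed 0.05 with library sizes alone, with all 3 groups in the fit, without any 1 of the ESC libraries, and without TET TKO replicate 1 or 2.

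The other 4 tested genes overlapped between ESCs and TET TKO ESCs. Gdf3 had 51.8, 58 and 46.3 RPKM in TET TKO ESCs, which is within the spread of the ESC libraries (log2 fold change of -0.03 ± 0.12, adjusted p = 0.84). Tdgf1 had 361, 280 and 242 RPKM (0.20 ± 0.15, adjusted p = 0.31). The Lefty genes varied more between replicates than Gdf3 and Tdgf1. Lefty1 had 107, 33.4 and 84.9 RPKM in TET TKO ESCs and a log2 fold change of -0.03 ± 0.41 (adjusted p = 0.966). Lefty2 had 54.1, 11.9 and 68.4 RPKM and a log2 fold change of -0.50 ± 0.57 (adjusted p = 0.523). TET TKO replicate 2 was the lowest library for both. Their SEs were the widest of the 7 genes, so these values leave room for a change in either direction. Mixl1 had 99, 135 and 53 counts, or 0.56, 0.824 and 0.268 RPKM, overlapping the ESC libraries at 0.246 to 0.372 RPKM, and without a filter its log2 fold change was 0.86 ± 0.45 (adjusted p = 0.215).

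Of the other pathway genes, 32 were tested in TET TKO ESCs and 0 were called by edgeR, with 5 lower and 13 higher at an unadjusted p under 0.05, while DESeq2 called 2 lower, Inhbb and Otx2. With an adjusted p under 0.05 and no fold limit, 5 were lower and 10 higher. The 5 lower, named after their values were seen, were Inhbb (-1.85 ± 0.37, adjusted p = 0.00787), the receptor Tgfbr1 (-0.50), the inhibitor Pmepa1 (-0.66) and the targets T (-1.97) and Otx2 (-1.62). Inhbb had 5.79, 5.98 and 2.32 RPKM, all below the 11.5 RPKM of the lowest ESC library. Of the 7 pluripotency markers 1 was called lower, Zfp42 (-2.60 ± 0.16), and the list summed to 1058 to 1215 RPKM. In the remaining marker lists 0 genes were called by edgeR, with 4 lower and 6 higher at an unadjusted p under 0.05, and DESeq2 called Vim lower and Krt18 higher. The summed trophectoderm list, mainly Krt18, was 121 to 325 RPKM in TET TKO ESCs and 30.2 to 32.8 RPKM in ESCs, and its part in the results was not tested.

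The balance of antagonists to ligand can be read within a library, free of scaling between libraries. The sum of Lefty1 and Lefty2 over Nodal, in RPKM, was 1.59, 1.35 and 3.86 in the ESC libraries. It was 1.18, 0.884 and 0.742 in NPs, and the TET TKO libraries had 4.4, 1.27 and 6.93. All 3 NP libraries lay below the lowest ESC library, and the TET TKO libraries lay on either side of the ESC range and above all NP libraries. An exact permutation test of 3 against 3 libraries cannot go below a p of 0.10, so these ratios are given without a test. Lefty1 over Lefty2 was 1.17, 1.43 and 1.12 in ESCs, 1.83, 1.54 and 4.08 in NPs, where Lefty2 had only 13, 26 and 4 counts. The same ratio was 1.98, 2.8 and 1.24 with TET knocked out. Lefty1 exceeded Lefty2 per length in all 9 libraries. By raw counts it did not do so in ESCs, where the mean ratio was 0.837. Nor did it by raw counts in TET TKO replicate 3, with 12879 counts for Lefty1 and 15396 for Lefty2.

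**Figure D4:**
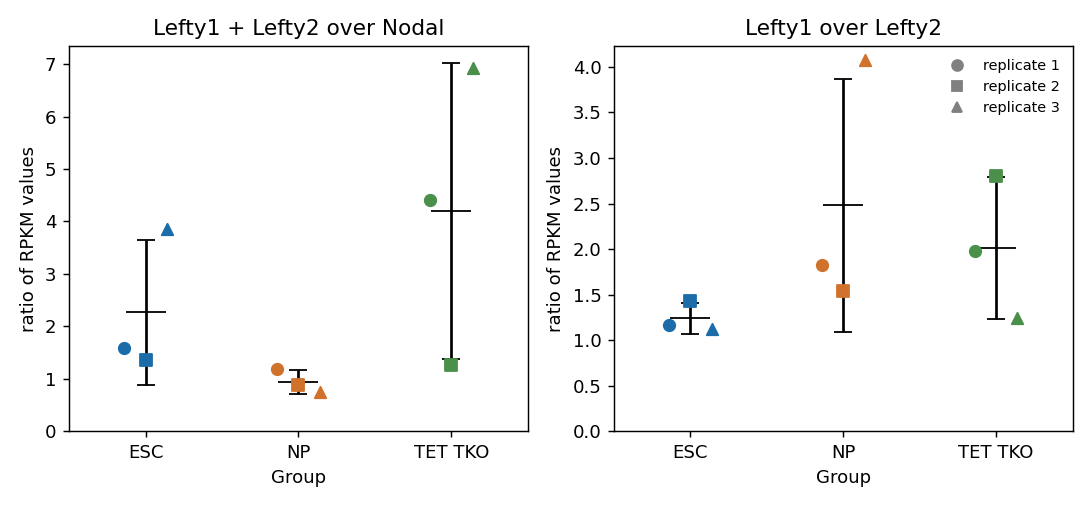
Ratios of RPKM values within each library, Lefty1 + Lefty2 over Nodal (left) and Lefty1 over Lefty2 (right), with 1 point per library and the mean ± SD of each group in black. The first ratio is lowest in NPs (0.742 to 1.18) and ranges from 1.27 to 6.93 in TET TKO ESCs, and the second is above 1 in every library.

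Some exon sequence of 4 of the genes is repeated elsewhere in the genome. Of the 50-base windows in annotated exons, as long as the reads, 100% occurred once in the genome for Nodal, Foxh1, Smad7 and Mixl1 and 97.5% for Gdf3, but 82.7% for Tdgf1, 84.6% for Lefty2 and 80.6% for Lefty1. Lefty1 and Lefty2 shared 303 windows with each other, and Tdgf1 shared 164 with the pseudogene Tdgf1-ps1. Reads that map to several places were not counted, which lowers the levels of these genes against the other members. Dividing by windows found once in place of gene length left the ratio of Lefty1 to Lefty2 within 1 SD in each group. The sum of Lefty1 and Lefty2 over Nodal stayed within 1 SD in ESCs and TET TKO ESCs. In NPs the mean of this sum over Nodal moved by more than 1 SD, from 0.935 ± 0.224 (SD, n = 3) to 1.18. No member shares exon bases with another annotated gene.

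Tdgf1-ps1 (ENSMUSG00000095834), named after its values were seen, differed between the lines. It had 1622, 1618 and 2108 counts in ESCs and 165, 122 and 115 counts in TET TKO ESCs, and 0, 2 and 0 in NPs. The log2 fold change in TET TKO ESCs was -5.52 ± 0.21 (adjusted p = 1.12e-05). Of the counts on Tdgf1 and its pseudogene together, 10.6% ± 0.513 (SD, n = 3) fell on the pseudogene in ESCs and 0.222% ± 0.0117 in TET TKO ESCs. The summed level of the pair was 738, 726 and 769 CPM in ESCs and 949, 735 and 636 CPM in TET TKO ESCs, so that the groups overlapped with the pseudogene's counts included.

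Mixl1, Lefty2 and Lefty1 lie on 1 stretch of chromosome 1, with 196.1 kb between Mixl1 and Lefty2 and 35.9 kb between Lefty2 and Lefty1. The annotation places 12 other genes wholly within it. Of these, 8 were tested in NPs against ESCs, and 2 were called, Gm37768 and H3f3aos, which were higher in NPs (3.48 and 2.77 on the log2 scale). Among all tested genes 12.4% were called higher in NPs. In TET TKO ESCs 6 were tested and 1 was called, Gm20305, which was lower (-6.57, adjusted p = 0.000519 by edgeR), beside 1.21% of all tested genes. These 3 neighbours were named after their values were seen. Gm37768, H3f3aos and Gm20305 overlap the span of other genes and counting ignored strand, so the source of their reads is uncertain.

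Other genes had nearly the profile of these members. Likeness was measured as the root mean square difference of log2 CPM, centred on each gene's mean of the 9 libraries, over 15614 genes. The genes most like Nodal were Laptm5 (0.26), Fgr (0.29) and Hsd17b14 (0.34), and the nearest of the other members was Gdf3, at rank 210 with 0.88. Laptm5 had a mean of 24.5 RPKM in ESCs, which compares with 0.237 RPKM in NPs and 11.2 RPKM with TET knocked out. For Lefty1 they were Esrrb (0.40), Aire (0.46) and Zscan5b (0.46), with Lefty2 at rank 6 (0.54) and Gdf3 at rank 8 (0.58). For Lefty2 they were Ly6g6e (0.50), Lefty1 (0.54) and Aire (0.56). For Tdgf1 they were Platr10 (0.70), Tcl1 (0.84) and Dnmt3l (0.88). Esrrb is a nuclear receptor of the pluripotency network and Dnmt3l a cofactor of de novo DNA methylation. The 9 libraries share 3 groups, so these values mainly rank genes by their group means.

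Promoter sequences were at hand for 2 of the 8 genes, Nodal and Tdgf1, from RefSeq (build GRCm38.p6), and none for Gdf3, Lefty1, Lefty2, Foxh1, Smad7 and Mixl1. They are shown because the study is about methylation of CpGs and both genes were called lower in NPs. Each stretch runs 5′ to 3′ from 250 bases before to 50 bases after the transcription start, with every CpG in capitals. Nodal lies at chr10:61417722-61418021 on the plus strand and Tdgf1 at chr9:110946109-110946408 on the minus strand.
Nodal: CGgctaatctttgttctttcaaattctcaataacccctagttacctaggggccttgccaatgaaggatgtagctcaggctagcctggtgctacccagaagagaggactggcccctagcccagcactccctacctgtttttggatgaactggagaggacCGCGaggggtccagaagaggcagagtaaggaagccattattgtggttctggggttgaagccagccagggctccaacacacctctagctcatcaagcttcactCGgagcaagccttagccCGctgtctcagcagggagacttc
Tdgf1: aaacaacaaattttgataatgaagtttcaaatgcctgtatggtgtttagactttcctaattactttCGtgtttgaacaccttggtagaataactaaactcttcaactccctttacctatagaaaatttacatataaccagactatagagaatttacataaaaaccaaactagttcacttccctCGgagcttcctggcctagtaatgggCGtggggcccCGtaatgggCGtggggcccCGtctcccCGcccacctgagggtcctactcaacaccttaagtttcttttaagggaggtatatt

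Of 27025 promoters of the same length, 38.3% have fewer CpGs than the Nodal stretch and 47.7% fewer than the Tdgf1 stretch. Nodal has 5 CpGs at a GC content of 54% and an observed-over-expected CpG ratio of 0.229, and Tdgf1 has 7 CpGs at 41.7% and 0.545. Over all these promoters the medians were 7 CpGs, 52.7% and 0.389. Matches on either strand were sought for cores of FOXH1 (AATNCACA), SMAD (CAGAC), OCT4 (TGCAAAT) and SOX (ACAANG) motifs, which are held by 3.63%, 49.7%, 3.98% and 41.6% of all these promoters. The Nodal stretch holds 1 SOX core, on the minus strand, and the Tdgf1 stretch holds 1 SMAD core, on the plus strand, and neither holds the FOXH1 or the OCT4 core. A match of letters is a description of the sequence and does not show binding.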

How the data were processed

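RNA was measured by single-end RNA-seq (50 bases) from a stranded mRNA kit. Per the labels and the study's methods, the authors trimmed reads (Trimmomatic 0.38 in the submitters' processing notes), mapped them to GRCm38 with STAR 2.6.1b, counted them on Ensembl 89 genes with featureCounts 1.6.2, ignoring strand, and deposited raw counts per gene. Reads mapping to several places were not counted.

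From these counts, 3 libraries per group were compared with the quasi-likelihood test of edgeR 4.0.16 (R 4.3.3), with TMM scaling, over genes with at least 1 RPKM in 1 library of the comparison, and called at a Benjamini-Hochberg adjusted p under 0.001 and 3-fold, limits taken from the study's methods. RPKM used TMM-scaled library sizes of all 9 libraries and gene lengths of the tables. Alternatives were DESeq2 1.42.0, library sizes alone, 2 other filters on low counts, other call limits, a fit of all 3 groups, a block for the replicate number, TET TKO counts thinned to ESC depth and each library left out. On simulated counts with 4-fold changes, 93.9% were recovered for NPs (14060 genes) and 96.9% for TET TKO ESCs (13120 genes). The simulation took its spread from the ESC libraries alone and changed only genes above a limit on mean counts. These shares therefore do not describe the spread within NP or TET TKO libraries, or genes with few counts. Windows were matched to GRCm38, and symbols came from a gene table that named 51633 of 51912 IDs. Python 3.11.15 was used for summaries.

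The members, lists and markers were chosen with earlier results of these data known. Named genes are the 8 members, the called genes among the 3 largest changes of each list, the 3 genes most like Nodal, Lefty1, Lefty2 and Tdgf1 in profile, and Tet1, Tet2 and Tet3. Other genes named in the text, such as Tdgf1-ps1, the neighbours of the Lefty genes, untested or uncalled list genes and genes called only by DESeq2, fall outside this rule and were named after their values were seen. Methylation tables of the other samples, and protein sequences, were not used here.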

Additional observations from a re-analysis of the deposited data

How the results depend on the processing

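In NPs, the 7 members called lower stayed called under every alternative that tested them. With at least 10 counts in every library 4 were tested and called, and that filter left 842 of all genes lower and 2 pathway genes lower; without a filter 2588 genes were lower. With an adjusted p under 0.05 and no fold limit, 4738 genes were lower and 4996 higher, and among pathway genes 10 and 22. In TET TKO ESCs no member was called under the study's limits in any alternative, and 2 were lower and 1 higher at an adjusted p under 0.05, as were 1770 and 3183 of all genes and 5 and 10 pathway genes. All genes called lower and higher in TET TKO ESCs (169 and 153) were 506 and 404 by DESeq2 and 689 and 574 without a filter, which also called 2 pathway genes lower and 2 higher; DESeq2 called 2 pathway genes lower, and library sizes alone gave 98 genes higher. Leaving out 1 library gave 36 to 168 lower and 14 to 161 higher; ESC replicates 1, 2 and 3 gave 36, 41 and 50 lower and TET TKO replicates 1 and 2 gave 61 and 99, with 14, 18, 24, 65 and 91 higher. The cause was not tested.

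Among members not called in TET TKO ESCs, the sign of Gdf3 turned (0.03 without ESC replicate 2, 0.04 without TET TKO replicate 3), as did that of Lefty1 (0.27 without ESC replicate 3, 0.33 without TET TKO replicate 2), at log2 values from -0.12 to 0.04 and from -0.37 to 0.33. Without division by length 4 members changed rank in ESCs and 3 in TET TKO ESCs, and Lefty1 over Lefty2 in ESCs was 0.837. Dividing by windows found once, chosen after seeing the data together with leaving out libraries for the ratios, gave 1.18 for Lefty1 + Lefty2 over Nodal in NPs.

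With the replicate number as a block, 332 genes were lower and 342 higher in TET TKO ESCs, 1 of them a pathway gene (lower), and 7 members stayed called in NPs. Whether the numbers mark a pairing was not settled. Correlations of deviations between same-numbered libraries ran from -0.135 to 0.0146 for NPs and from -0.0898 to 0.341 for TET TKO ESCs. Not every library correlated best with its own number, though ESC replicates 2 and 3 did so with TET TKO ESCs. With 3 libraries centred on their group mean, such correlations cannot decide the question.

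NP levels rest on 2 to 62 counts a library for the members other than Smad7 and Mixl1, which limits the precision of their fold changes.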
